A study of Homo sapiens with 8 samples.

Results

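The EGR and IER immediate early genes were described together with SRF, the transcription factor that switches many of them on, and with NAB1 and NAB2, the corepressors that bind EGR proteins. The group was set by name, as every probe set whose platform annotation names EGR1, EGR2, EGR3, SRF, IER2, IER3, IER5, NAB1 or NAB2. This gave 15 probe sets of 54613 for 8 of the 9 genes, among 19775 genes with a named probe set. EGR2 was named by no probe set in the annotation used and was not analysed here. Each of the 15 probe sets named 1 gene only. The arrays came from MDA-MB-231, an established human line of basal-type metastatic breast cancer with mutant p53. All cells expressed shGFP, a control hairpin delivered by retrovirus, and all went without serum for 24 h. The group treated with TGFβ, a growth inhibitory cytokine of the SMAD pathway, had 4 arrays and was labelled with 5 µg/ml for 3 h. TGFβ is commonly dosed in ng/ml, so the unit of the label is uncertain. The untreated group also had 4 arrays, and both groups carry the replicate letters A to D. The sample titles name them biological replicates but do not say whether these were separate cultures, so the spread behind the p-values may be partly technical.

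Immediate early genes are transcribed within minutes of a stimulus from factors that the cell already holds, and their transcripts are short-lived. In the classical route, growth factor signalling through ERK phosphorylates ternary complex factors such as ELK1, which sit beside SRF on a sequence called the CArG box. EGR proteins are zinc finger factors that bind GC-rich sites, and NAB1 and NAB2 dock on them and repress their targets. NAB2 is itself induced by EGR proteins, which closes a feedback loop. TGFβ can also reach these genes, through SMADs and through MAP kinases.

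The sequences upstream of the start site show which of these elements each gene has close to its promoter. They are RefSeq sequences of build GRCh38.p14, 250 bases each, read 5′ to 3′ on the strand of the gene. The windows of EGR1 (chr5:138465229-138465478, plus strand) and SRF (chr6:43171019-43171268, plus strand) are shown because they hold CArG boxes, which are in capitals.

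EGR1: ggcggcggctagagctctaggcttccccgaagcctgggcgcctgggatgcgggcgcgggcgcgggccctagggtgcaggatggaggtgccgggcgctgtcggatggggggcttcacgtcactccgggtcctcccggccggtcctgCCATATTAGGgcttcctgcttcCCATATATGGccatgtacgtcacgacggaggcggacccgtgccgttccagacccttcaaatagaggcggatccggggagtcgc

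SRF: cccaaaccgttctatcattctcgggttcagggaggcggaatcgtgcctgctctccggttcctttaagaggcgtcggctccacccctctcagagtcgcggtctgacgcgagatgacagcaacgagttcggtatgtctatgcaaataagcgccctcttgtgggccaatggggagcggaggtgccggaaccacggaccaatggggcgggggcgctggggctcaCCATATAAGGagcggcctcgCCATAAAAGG

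EGR1 had a CArG box at 105 and another at 83 bases upstream of the start site, and SRF at 30 and 10 bases upstream (each counted to the first base of the box). A CArG box was found in 1.29% of all 35116 promoter windows of the table, each searched on both strands from 250 bases before to 50 after a start site. One of the 3 windows of EGR2 also held a CArG box, while the windows of IER2, IER5, NAB1 and NAB2 held none. The table used gave no window for IER3, and none is given here for EGR3.

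The windows of the corepressors NAB1 (chr2:190648645-190648894, plus strand) and NAB2 (chr12:57088864-57089113, plus strand) are shown because they hold the EGR site GCGNGGGCG, in capitals here on either strand.

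NAB1: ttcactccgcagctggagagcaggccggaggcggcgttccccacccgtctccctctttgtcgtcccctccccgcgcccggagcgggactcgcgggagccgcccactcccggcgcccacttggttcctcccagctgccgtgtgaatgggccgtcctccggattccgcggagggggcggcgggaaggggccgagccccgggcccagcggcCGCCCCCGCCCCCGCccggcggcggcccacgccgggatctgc

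NAB2: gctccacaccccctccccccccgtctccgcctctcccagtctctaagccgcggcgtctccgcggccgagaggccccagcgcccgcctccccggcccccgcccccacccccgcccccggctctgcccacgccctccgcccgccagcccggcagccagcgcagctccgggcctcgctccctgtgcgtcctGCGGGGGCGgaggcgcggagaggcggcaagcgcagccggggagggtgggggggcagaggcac

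The EGR site was found in 9.43% of all windows. The match in NAB2 begins 62 bases upstream of the start site. Those printed for NAB1 begin 42 and 36 bases upstream and overlap each other, and 1 more lies downstream of the start. A second NAB1 window that overlaps the first holds 4 matches, which include all those of the first window. EGR1, EGR2 and SRF each held 1 such site as well, that of EGR2 downstream of the start of 1 of its windows. The SMAD box CAGAC occurred in 45.3% of all windows, among them those of EGR1, SRF, IER2, IER5 and NAB2. The core TGACG of the cAMP response element occurred in 24.6%, among them windows of EGR1, EGR2, SRF, IER2 and NAB1. The full element TGACGTCA, which contains this core (1.85% of all windows) and the AP-1 site TGANTCA (7.71%) were not found in the members' windows, and the ETS core GGAA (95.5%) was found in those of all members except NAB2. Such matches describe letters in a window and do not show that a factor binds there.

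**Figure D1:**
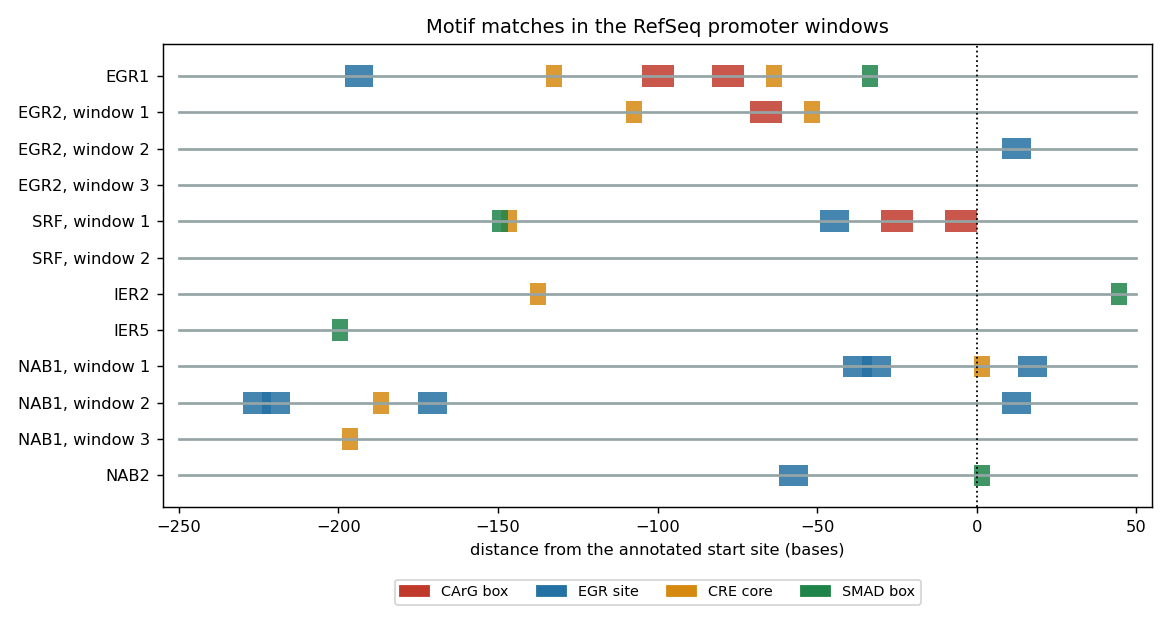
Motif matches in the RefSeq promoter windows of the members, by distance in bases from the annotated start site (dotted line), with 1 row per window and coloured boxes for matches on either strand. The CArG boxes lie in the windows of EGR1, EGR2 and SRF, and EGR sites in those of EGR1, EGR2, SRF, NAB1 and NAB2; the first and second NAB1 windows overlap in the genome.

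A list of early SMAD targets was read as a check of the treatment. It was drawn up with earlier results of these arrays known, so it is not an independent check. Of 7 early SMAD targets 5 rose, also without treated A (BHLHE40, CCN2 and PMEPA1 not without untreated C, untreated D or treated D, with adjusted p of 0.0728 to 0.148; PMEPA1 also not without treated B or C, 0.0982 and 0.115, and CCN2 not without treated C, 0.0516), among them SMAD7, the inhibitory SMAD, by 1.81 ± 0.21 SE (log2, adjusted p = 0.0039). Over all genes, with 1 probe set per gene, 0.576% passed at an adjusted p of 0.05 in either direction. Values are RMA signals on a log2 scale, and array medians ranged from 4.62 to 4.66. All 5 genes chosen as high in MDA-MB-231 (VIM, CD44, EGFR, CAV1 and MSN) lay above that level, and their mean lay between 11.61 and 12.08 on TGFβ arrays and between 11.60 and 11.94 on untreated arrays. Of 8 luminal breast markers 5 lay above it as well. CDH1, the 1 luminal marker that rose (0.90 ± 0.11 SE, adjusted p = 0.00579), was not among these 5. Its mean was 4.08 on untreated arrays, below the array medians, and 4.98 on TGFβ arrays. Of 9 markers of blood, endothelium and fibroblasts 3 lay above the array medians. A low RMA signal cannot be told from background, which holds for CDH1 on untreated arrays too. Treated array A had a larger excess of 3-prime over 5-prime signal than the others: for ACTB it was 1.68 on treated A and 0.63 to 0.78 on the other treated arrays, against 0.67 to 0.89 on untreated arrays (log2). For GAPDH the excess was 0.54 on treated A and 0.07 to 0.10 on the other treated arrays, against 0.06 to 0.14 on untreated arrays. Fold changes of the members that rest on array A are therefore also given without it.

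None of the 15 probe sets passed the test at an adjusted p of 0.05 (limma, adjusted over all 54613 probe sets, of which 0.256% passed). Their adjusted p lay between 0.39 and 0.994. At an unadjusted p of 0.05 there were 2, 211139_s_at of NAB1 and 212803_at of NAB2, where 7.44% of all probe sets passed. Log2 fold changes ran from -0.59 to 0.32 with a median of 0.10, against a median of 0.01 over all probe sets, and 11 of the 15 were positive. The replicate letters accounted for part of the spread: with the letter as a block, 2 probe sets of NAB1 fell (adjusted p = 0.0164 and 0.0499) and the other 13 did not pass. In that fit 1.75% of all probe sets passed, 0.989% with lower signals. In the fit of 1 probe set per gene none of the 8 genes passed, where 0.576% of all genes did, and none passed with the block, where 3.57% did. At an unadjusted p of 0.05 there was 1 of the 8 genes without the block, where 8.14% of all genes passed, and there were 3 with it, where 15.3% passed.

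**Figure D2:**
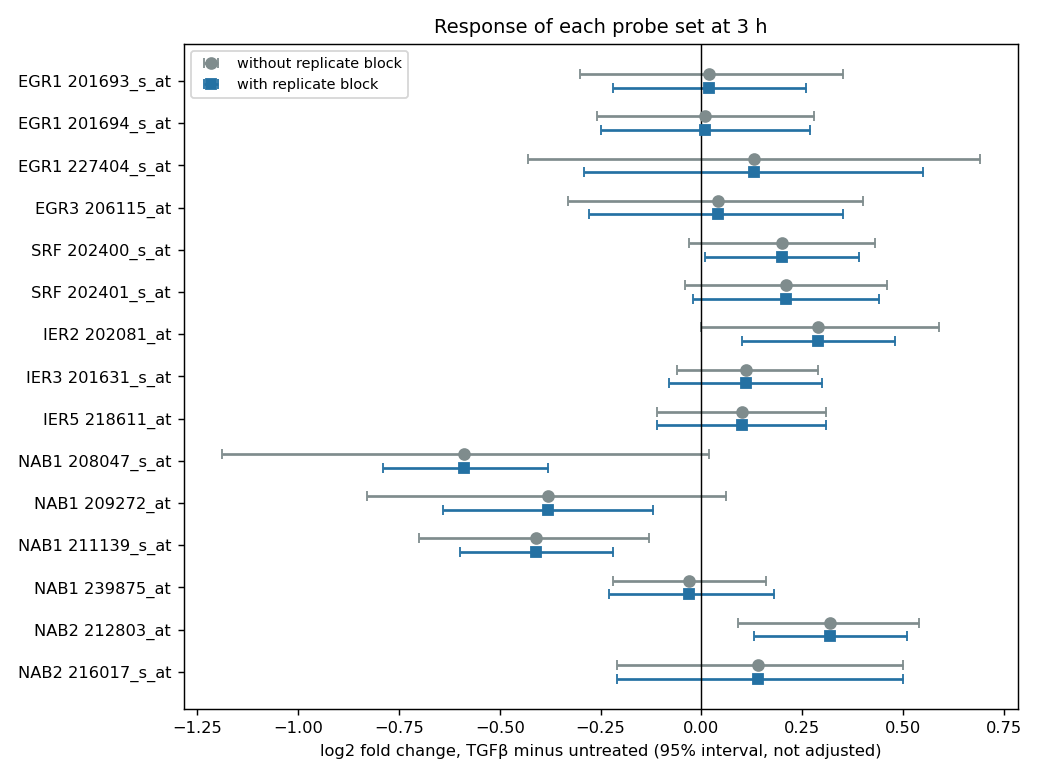
Log2 fold change of each of the 15 probe sets, TGFβ minus untreated, with 95% intervals that are not adjusted for the number of probe sets, without the letter as a block (grey circles) and with it (blue squares). The block leaves the estimates in place and narrows the intervals of NAB1 208047_s_at most, from between -1.19 and 0.02 to between -0.79 and -0.38.

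EGR1 (Entrez Gene 1958), the founding member of the EGR family and a common readout of growth factor signalling, showed no difference past the test after 3 h of TGFβ. No other time was measured. For EGR1 and the other genes here, an earlier rise that had ended by 3 h would therefore not be seen. Its brightest probe set, 227404_s_at, had signals of 9.55, 10.81, 10.69 and 10.49 on TGFβ arrays A to D, against 10.26, 10.34, 10.50 and 9.92 on untreated arrays A to D. Treated array A was the lowest of all 8, treated B and C were the highest, and the groups overlapped. The log2 fold change was 0.13 ± 0.25 SE, a ratio of 1.09 with a 95% interval from 0.744 to 1.61 (adjusted p = 0.95; 0.828 with the block). Treated A was also the array with the 3-prime excess given above, and the part of that excess in the low signal was not tested. Without treated A the log2 fold change was 0.41 (adjusted p = 0.422). With the block and without both arrays of letter A it was 0.41 ± 0.11 SE, which missed the threshold over probe sets (adjusted p = 0.0969, where 2.59% of all probe sets passed) and passed over genes (adjusted p = 0.0345, where 6.59% of all genes passed). The other probe sets of EGR1 did not show this difference. In the block fit without letter B, C or D, EGR1 did not pass over genes (adjusted p = 0.988, 0.884 and 0.992).

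Probe set 201694_s_at had signals of 7.78, 8.20, 8.15 and 7.86 on TGFβ arrays A to D, against 7.90, 7.95, 7.92 and 8.20 on untreated arrays. Its log2 fold change was 0.01 ± 0.12 SE (adjusted p = 0.994), a ratio with an interval from 0.835 to 1.21. Probe set 201693_s_at was at 5.72 ± 0.16 on TGFβ arrays and 5.69 ± 0.28 on untreated arrays (SD, n = 4 each), with a fold change of 0.02 ± 0.14 SE in log2 (adjusted p = 0.987). Without letter A both stood at 0.05 in the fit with the block. The 3 probe sets did not follow one another over the 8 arrays: Pearson's r was -0.58 between 201693_s_at and 227404_s_at, 0.44 between 201694_s_at and 227404_s_at and -0.05 between the first and second, as a description of 8 points.

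EGR3 (1960), a relative of EGR1 that is induced by the same stimuli, was dim. Its probe set 206115_at had signals of 3.71, 3.94, 3.26 and 3.44 on TGFβ arrays A to D, against 3.20, 3.76, 3.66 and 3.58 on untreated arrays. All 8 values lay below the median of their arrays and the groups overlapped. The log2 fold change was 0.04 ± 0.17 SE (adjusted p = 0.983), and at such a signal a change would be understated.

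**Figure D3:**
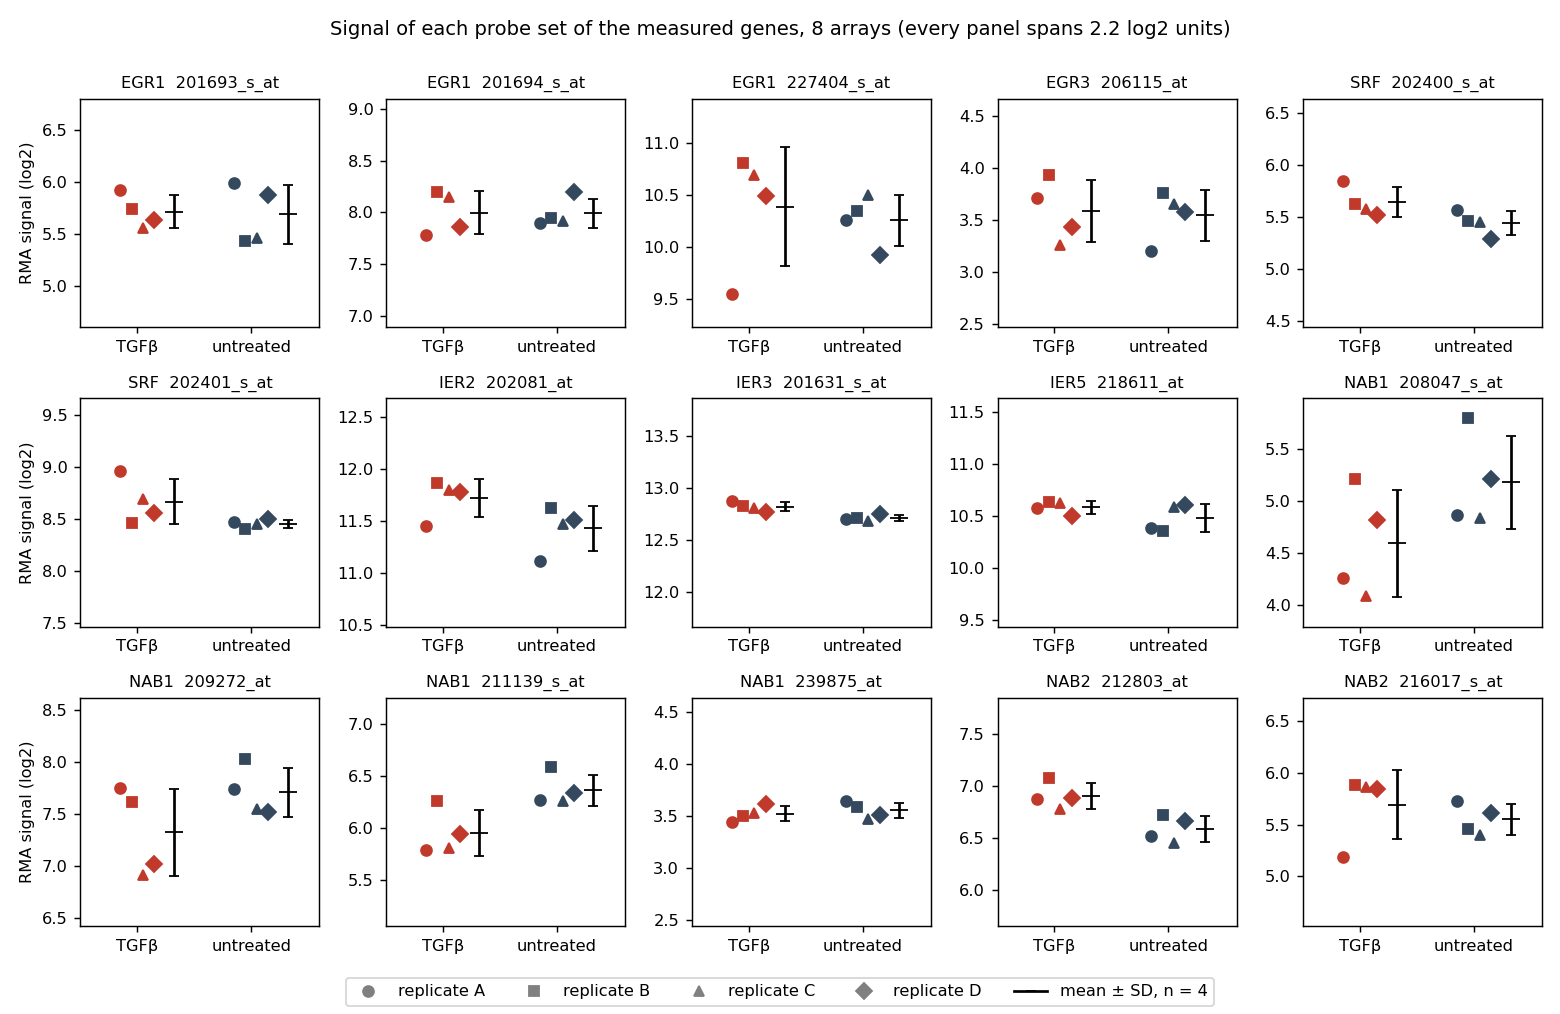
RMA signal (log2) of each probe set on the TGFβ arrays (red, left) and the untreated arrays (dark, right), with a symbol for each replicate letter and the mean ± SD of 4 arrays beside the points. The groups separate for IER3 and for NAB2 212803_at, and treated array A stands low for EGR1 227404_s_at and NAB2 216017_s_at.

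SRF (6722), the factor that binds the CArG box, had slightly higher signals on TGFβ arrays in both of its probe sets, and neither passed the test. Probe set 202401_s_at had signals of 8.96, 8.46, 8.70 and 8.56 on TGFβ arrays A to D, against 8.47, 8.41, 8.45 and 8.50 on untreated arrays. Treated A was the highest value, treated B lay within the untreated range, and the untreated arrays differed little. The log2 fold change was 0.21 ± 0.11 SE, a ratio of 1.16 with an interval from 0.973 to 1.38 (adjusted p = 0.751; 0.415 with the block). The dimmer 202400_s_at had 5.85, 5.63, 5.58 and 5.52 on TGFβ arrays A to D, against 5.57, 5.46, 5.45 and 5.29 on untreated arrays, and a fold change of 0.20 ± 0.10 SE in log2 (adjusted p = 0.729; 0.336 with the block). In both probe sets the treated array was higher in all 4 letters. Without both arrays of letter A the values were 0.12 and 0.18 (adjusted p = 0.627 and 0.42 with the block).

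The IER genes code for short nuclear or membrane proteins that are not related by function as a group. IER2 (9592), a nuclear protein that takes part in transcriptional control, had signals of 11.46, 11.87, 11.80 and 11.78 on TGFβ arrays A to D, against 11.12, 11.63, 11.47 and 11.51 on untreated arrays. Letter A was the lowest array of each group, and the groups overlapped only because treated A lay below untreated B, C and D. Within letters the treated array was higher by 0.33, 0.24, 0.33 and 0.26, a spread of 0.05 (SD of the 4 differences). The log2 fold change was 0.29 ± 0.13 SE, a ratio of 1.22 with an interval from 0.998 to 1.5. It did not pass (adjusted p = 0.678), nor did it with the block (0.29 ± 0.08 SE, adjusted p = 0.147). Without treated A and without the block the log2 fold change was 0.38 (adjusted p = 0.375).

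IER3 (8870), a regulator of apoptosis and of ERK signalling, was the only member besides NAB2 with a probe set whose groups did not overlap. It had 12.88, 12.83, 12.81 and 12.77 on TGFβ arrays A to D, against 12.70, 12.71, 12.68 and 12.75 on untreated arrays. The gap between treated D and untreated D was only 0.02, and the log2 fold change was 0.11 ± 0.08 SE (adjusted p = 0.812; 0.624 with the block). Probe sets so bright can respond less than in proportion to RNA. IER5 (51278), a nuclear protein linked to the heat shock response, had 10.57, 10.63, 10.62 and 10.50 on TGFβ arrays A to D, against 10.38, 10.35, 10.58 and 10.60 on untreated arrays. Treated D lay below untreated C and D, and the log2 fold change was 0.10 ± 0.09 SE (adjusted p = 0.872; 0.718 with the block). The 95% intervals put the ratio below 1.22 for IER3 and below 1.24 for IER5.

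The corepressors NAB1 and NAB2 had the lowest and the highest log2 fold changes among the 15 probe sets, in opposite directions. NAB1 (4664) was measured by 4 probe sets. All 4 had a lower mean on TGFβ arrays, with a log2 fold change of only -0.03 for 239875_at. Probe set 208047_s_at had 4.26, 5.21, 4.09 and 4.82 on TGFβ arrays A to D, against 4.87, 5.80, 4.84 and 5.21 on untreated arrays. Letter B was the highest array of each group, so that the groups overlapped, but within each letter the treated array was lower, by 0.61, 0.59, 0.75 and 0.39. The log2 fold change was -0.59 ± 0.27 SE without the block (ratio 0.667, interval 0.439 to 1.01, adjusted p = 0.687) and -0.59 ± 0.09 SE with it (adjusted p = 0.0164). In the block fit it passed without letter A (adjusted p = 0.0264) and without letter D (0.0423), and did not without letter B (0.11) or letter C (0.0912). Its signal is low, below the array median on 2 of 8 arrays.

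Probe set 211139_s_at of NAB1 had 5.78, 6.26, 5.80 and 5.94 on TGFβ arrays A to D, against 6.27, 6.58, 6.26 and 6.33 on untreated arrays. Treated B again reached the level of untreated A and C. Its log2 fold change was -0.41 ± 0.13 SE (adjusted p = 0.39), and -0.41 ± 0.08 SE with the block (adjusted p = 0.0499), just under the threshold. Without letter A, B, C or D the adjusted p in the block fit was 0.0805, 0.17, 0.183 and 0.198. The brightest probe set, 209272_at, which stood for NAB1 in the fit over genes, had 7.75, 7.62, 6.91 and 7.02 on TGFβ arrays A to D, against 7.74, 8.03, 7.55 and 7.52 on untreated arrays. Letters B, C and D were lower after TGFβ and letter A was equal, and the log2 fold change was -0.38 ± 0.20 SE (adjusted p = 0.74; 0.168 with the block). Without letter A it was -0.52 ± 0.10 SE and passed in the block fit (adjusted p = 0.032). It did not pass there without letter B, C or D (0.415, 0.432 and 0.489). The fourth, 239875_at, was dim, with all 8 values below the array median, and its log2 fold change was -0.03 (adjusted p = 0.97).

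NAB2 (4665), the corepressor that EGR proteins induce, had higher signals on TGFβ arrays in probe set 212803_at. These were 6.88, 7.08, 6.78 and 6.89 on TGFβ arrays A to D, against 6.52, 6.72, 6.45 and 6.66 on untreated arrays. Every treated array lay above every untreated one, as for 2 of the 15 probe sets in all and for 4.75% of all probe sets. The log2 fold change was 0.32 ± 0.10 SE, a ratio of 1.25 with an interval from 1.07 to 1.45. It did not pass over all probe sets (adjusted p = 0.411; 0.119 with the block) or over genes (0.325; 0.0669 with the block). The second probe set, 216017_s_at, had 5.19, 5.88, 5.86 and 5.84 on TGFβ arrays A to D, against 5.73, 5.46, 5.40 and 5.61 on untreated arrays. Treated A lay below all other arrays and the other treated arrays above all untreated ones, which gave a fold change of 0.14 ± 0.16 SE in log2 with all arrays (adjusted p = 0.9; 0.765 with the block) and 0.37 ± 0.10 SE with the block and without letter A (adjusted p = 0.103).

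Across the members, 7 of the 15 probe sets had the same sign in all 4 letters, and over all probe sets 21.0% did. The 7 are both probe sets of SRF, those of IER2 and IER3, 212803_at of NAB2 and 2 of NAB1, and probe sets of 1 gene are not independent of each other. The probe sets of EGR1, EGR3 and IER5 did not. Without both arrays of letter A, 2 of the 15 passed in the block fit, 208047_s_at and 209272_at of NAB1. In that fit 2.59% of all probe sets passed. Over genes EGR1 rose and NAB1 fell there (adjusted p = 0.0345 and 0.00662), where 6.59% of all genes passed. The call of EGR1 was that of its brightest probe set, while its other probe sets had log2 fold changes of 0.05 there. In the block fit without letter B, C or D, EGR1 did not pass over genes (adjusted p = 0.988, 0.884 and 0.992). NAB1 did not either (0.315, 0.332 and 0.351). Without treated A and without the block none of the 15 passed, with 6 at an unadjusted p of 0.05, as 8.62% of all probe sets were in that fit.

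**Figure D4:**
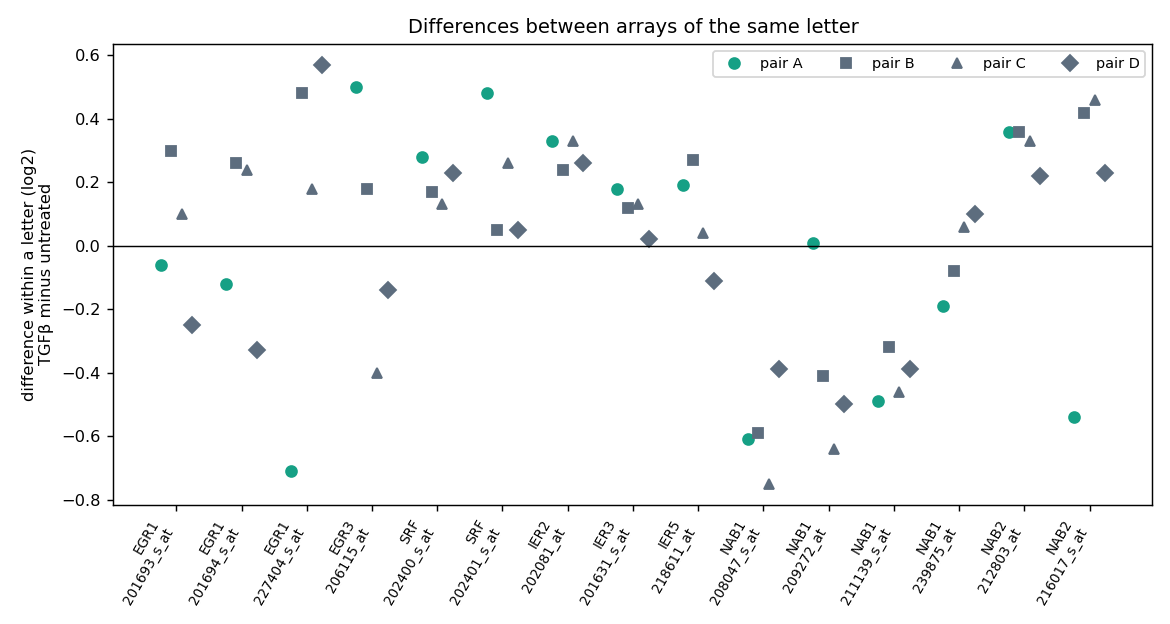
Difference between the TGFβ array and the untreated array of the same letter (log2) for each probe set, with a symbol per letter and letter A in green. The differences of IER2, of NAB2 212803_at and of NAB1 208047_s_at and 211139_s_at lie on one side of 0, while pair A stands apart for EGR1 227404_s_at (-0.71) and NAB2 216017_s_at (-0.54).

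Among 37 other immediate early genes 6 rose, 1 fell and 30 did not pass, with a median log2 fold change of 0.24 against 0.01 over all genes. Over all genes 0.576% passed in this fit and 3.57% with the block, which are also the shares for the lists below. With the block 12 of the 37 rose and 2 fell, and without letter B, C or D in that fit 8, 8 and 9 rose and 1 fell each time. Several of these genes are known TGFβ targets, and the list was drawn up with earlier results of these arrays known. JUNB, an AP-1 subunit, had 9.72, 9.99, 9.93 and 9.84 on TGFβ arrays A to D, against 8.40, 8.33, 8.13 and 8.07 on untreated arrays, and rose by 1.64 ± 0.11 SE (adjusted p = 0.000168). FOSL2, another AP-1 subunit, fell by 1.03 on the log2 scale (SE 0.16, adjusted p = 0.0172). The other genes that rose were JUN, RHOB (3 of its 5 probe sets in that direction), CCN2 (also among the SMAD targets above), SGK1 and HBEGF (3 of its 4 probe sets). Apart from JUNB the call of each was lost when some single arrays were left out, for all 6 without untreated D (adjusted p = 0.0503 to 0.118) and without treated D (0.0508 to 0.116); without untreated C it was also lost for JUN, RHOB, CCN2, SGK1 and HBEGF, with adjusted p up to 0.126. The call of SGK1 was also lost without untreated A (0.0535), those of SGK1 and HBEGF without treated B (0.0619 and 0.0671), and those of FOSL2, CCN2, SGK1 and HBEGF without treated C (0.0558, 0.0516, 0.0836 and 0.0522). FOS, an immediate early gene like EGR1, had a log2 fold change of 0.09 (adjusted p = 0.982). Its mean signal was 5.39 on TGFβ arrays and 5.30 on untreated arrays. The nearest relatives of the members, EGR4 and IER5L, had -0.09 and -0.16 (adjusted p = 0.921 and 0.868). EGR4 lay close to the array medians, with means of 4.75 on TGFβ arrays and 4.84 on untreated arrays. At low signals a change can be understated.

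Around SRF, the coactivator MRTFA, which binds actin and moves to the nucleus when actin filaments form, rose. It had 7.48, 7.74, 7.79 and 7.70 on TGFβ arrays A to D, against 6.78, 7.18, 6.92 and 6.93 on untreated arrays. Every treated array lay above every untreated one, and the log2 fold change was 0.73 ± 0.11 SE (adjusted p = 0.0178; 0.00112 with the block; 4 of its 5 probe sets in that direction). It missed the threshold without untreated C (0.0889), untreated D (0.0786), treated B (0.0516), treated C (0.0577) or treated D (0.0775). The other 6 cofactors did not pass, and with the block ELK3, a ternary complex factor, also rose (0.41 ± 0.16 SE without the block; adjusted p = 0.479, and 0.0205 with the block, but 0.129, 0.071 and 0.125 there without letter B, C or D). Of 17 genes listed for known SRF sites, most but not all of them cytoskeletal, 2 rose. These were TUFT1 (1.41 ± 0.09 SE, adjusted p = 0.000168) and TPM1, an actin-binding tropomyosin (0.60 ± 0.08 SE, adjusted p = 0.011). TPM1 missed the threshold without untreated C (0.0564) or treated D (0.0568). With the block TAGLN, a smooth muscle actin-binding protein, rose too (log2 fold change 0.93, adjusted p = 0.000447), and the median of the 17 was 0.03.

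Of 19 genes known as EGR targets, PDGFB, which codes for a mitogen of mesenchymal cells, rose (1.16 ± 0.10 SE, adjusted p = 0.000737) and 18 did not pass. Its signals were 7.36, 7.04, 7.06 and 7.10 on TGFβ arrays A to D, against 5.96, 5.90, 6.10 and 5.97 on untreated arrays. With the block 6 rose, which adds THBS1, PLAU, CDK5R1, PDGFA and F3, and GDF15 and DUSP4 fell. Only 1 of the 2 probe sets of CDK5R1 and 2 of the 3 of GDF15 went in these directions. CDK5R1 was dim, with a mean of 4.43 on untreated arrays. In the block fit DUSP4 missed the threshold without letter B, C or D (0.0732, 0.111 and 0.114), GDF15 without B or D (0.108 and 0.0661) and F3 without B (0.0714). Without treated A and without the block 3 of them rose and 1 fell. None of 13 genes of the route from EGFR to ERK and its nuclear kinases passed in either fit (1 at an unadjusted p of 0.05 in each), with log2 fold changes between -0.37 and 0.18, RPS6KA5 and RPS6KA1 at -0.37 and -0.18 (adjusted p = 0.395 and 0.809), and without letter A 1 fell in the block fit. None of 6 proteins that bind AU-rich elements in short-lived transcripts passed in either fit (2 at an unadjusted p of 0.05 in each). ZFP36 and ZFP36L1 had -0.39 and 0.37 (adjusted p = 0.55 and 0.547), and without letter A 1 rose in the block fit. Over all genes 8.14% were at an unadjusted p of 0.05 without the block and 15.3% with it. In the block fit without letter A 6.59% of all genes passed the adjusted threshold.

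**Figure D5:**
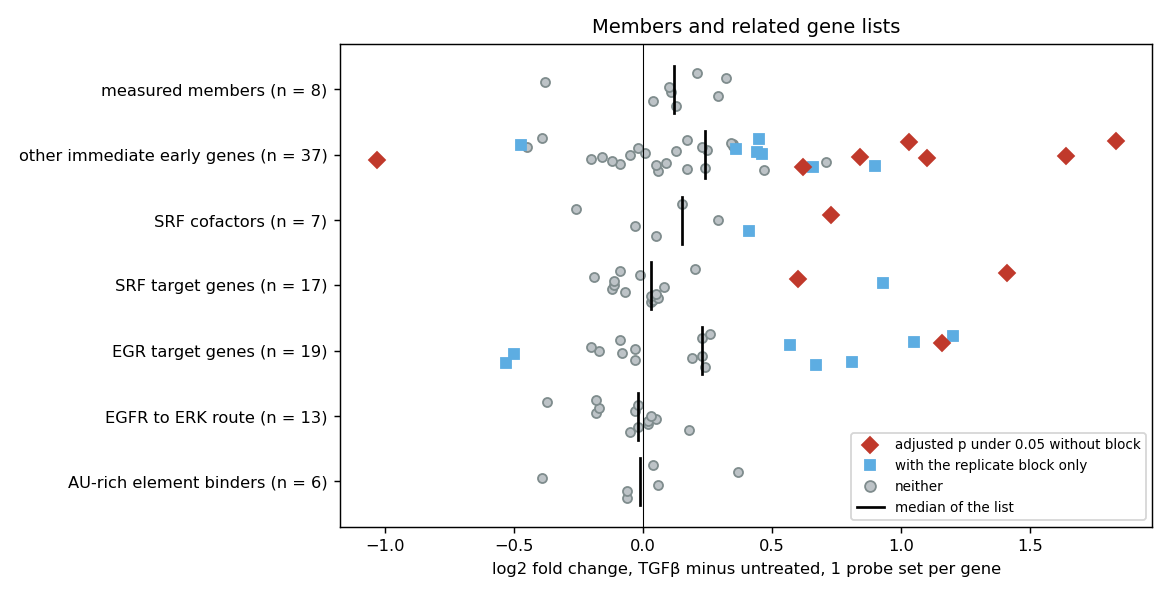
Log2 fold change, TGFβ minus untreated, of the 8 measured members and of the genes of 6 related lists, with 1 probe set per gene, the median of each list as a black bar, and symbols for genes that passed at an adjusted p of 0.05 without the block (red), with the block only (blue) or in neither fit (grey). The members lie between -0.38 and 0.32, inside the range of the other immediate early genes, which reached from -1.03 to 1.83.

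As a description of 8 arrays, the genes whose signals followed a member most closely were sought by Pearson's r among the 9887 genes in the upper part of mean signals. For EGR1 they were RAP2B (0.954), PATL1 (0.941), TMBIM4 (0.931) and ND2 (0.926), with log2 fold changes between -0.03 and 0.26. For SRF they were CTPS1 (0.967), DDX31 (0.966), LRRC74A (0.962) and RNF216 (0.961). For IER3 they were SLC7A5 (0.968), an amino acid transporter subunit, TANC2 (0.967), RHPN2 (0.967) and SLC7A1 (0.961). SLC7A5 rose by 0.70 (adjusted p = 0.0304), and missed the threshold without any single array except treated A (adjusted p = 0.0545 to 0.144). The other genes named for their likeness did not pass without the block. These 8 points share their normalization and their letters. Treated A, the array with the 3-prime excess, was the lowest of the 8 for EGR1 and the highest for SRF and IER3. The correlations were not computed without it.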

How the data were processed

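The authors deposited 1 log2 value per probe set and array, and per the submitters' processing notes these are RMA values (background correction, normalization across arrays, probe summary). No source used here gives the RMA version or the set of arrays processed together; the base of the logarithm was inferred from the values (1.68 to 13.92). Of 54675 probe sets 62 controls were set aside. GEO's platform annotation names 1 gene for 41091 of the others, several for 1801 and none for 11721; 41037 of the 41091 matched RefSeq by Entrez identifier. The probe set with the highest mean stood for its gene (19775 symbols).

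Groups came from the labels. The tests were two-sided limma fits (lmFit and eBayes, version 3.58.1, R 4.3.3), adjusted by Benjamini-Hochberg over all probe sets or genes, at a threshold of 0.05. Same-letter arrays deviated together over genes (r of 0.49, 0.69, 0.34 and 0.30 for A to D), so the letter was also fitted as a replicate block. This pairing comes from the data. Arrays of different letters were not compared in this way, so these values cannot tell single letters from groups of letters. Alternatives were single arrays left out, the upper 60% of signals, median centring, repeated quantile normalization, a trended and robust prior, mean probe sets, and no _s_at or _x_at probe sets; the block fit without each letter was added after seeing the data. The fits were tested on simulated data. Members, lists and tests were chosen with earlier results of these data known. Named genes were all members, list genes that passed (otherwise the 2 with the smallest p) and the 4 most similar to EGR1, SRF and IER3; FOS, EGR4, IER5L and genes that passed only with the block were added after their values were seen. Arrays with p53 depletion are not analysed here. Figures were drawn with matplotlib 3.10.9.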

Additional observations from a re-analysis of the deposited data

Results flagged for a closer look

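In 2 of 30 groups of 4 arrays (15 probe sets in each of both treatment groups) a single array lay far from the other 3, by Dixon's ratio of the gap to the range, and chance flags about 1 group in 20. For NAB2 216017_s_at the array was treated A, at 5.19 (ratio 0.947), the array with the 3-prime excess. For EGR1 201694_s_at it was untreated D, at 8.20 (ratio 0.856).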

How the results depend on the processing

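The count of probe sets past the threshold (140) was 954 with the replicate block and lay between 33 (without untreated D) and 240 (without treated A) with 1 array left out; the block fits without a letter gave 282 to 1416. The count of genes (114) was 705 with the block, 46 (without treated D) to 232 (without treated A) with 1 array left out, and 288 to 1304 in the block fits without a letter. The other settings gave 137 to 153 probe sets and 84 to 120 genes. No member passed in the 13 fits over probe sets or the 15 over genes that were run without the block (lowest adjusted p 0.149 and 0.26; 5 of the 8 genes were tested without _s_at and _x_at probe sets and 7 in the upper 60%). Over the 15 probe sets and all alternatives, 226 of 253 values kept their direction and their side of the threshold, 5 passed (all of NAB1, in block fits) and 22 changed sign, 21 of these when arrays were left out. The sign changes lie near 0: with arrays left out, EGR1 201693_s_at and 201694_s_at each ranged from -0.07 to 0.12, EGR1 227404_s_at from -0.02 to 0.41, EGR3 from -0.12 to 0.18 and NAB1 239875_at from -0.07 to 0.03, and with median centring EGR1 201694_s_at was at 0.00; the cause was not tested. The log2 fold changes of SRF, IER2, IER3, IER5, NAB2 and the other NAB1 probe sets kept their sign in every alternative run. With only the upper 60% of signals 13 of the 15 probe sets were tested, without EGR3 and NAB1 239875_at. Arrays give no counts, and their number and the dimness of EGR3 and of some NAB1 probe sets limit the precision.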
